A study of Mus musculus with 34 samples.

Results

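PDX1 is the homeodomain factor that sustains insulin transcription and β-cell identity, and of its 40028 peaks in wild-type control cells 1528 were centred no more than 1 kb from either end of a protein-coding gene body, a share of 3.82% (Wilson 95% interval 3.63 to 4.01%). These gene-end peaks were chosen by position alone, on the nuclear chromosomes, without use of their signal, their genes or the other peak lists. They lay at 1621 of 21887 protein-coding genes. A gene body has 2 ends, the start of transcription and the far end, and both count here.

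The peaks come from ChIP-seq, in which an antibody pulls down a protein with its DNA for sequencing, in Beta-TC6 cells, an insulin-secreting mouse tumour line derived from β-cells that express a viral oncogene under an insulin promoter. All cells had received a pulse of 10 µM forskolin for 1 h to synchronise their clocks. PDX1 and the NF-κB subunit p65 were each examined in Bmal1-/- cells with IL-1β, Bmal1-/- cells without it, wild-type cells with IL-1β and wild-type cells without it (Control), with 3 samples per group. SIN3A, around which a corepressor with histone deacetylases is built, was examined in wild-type cells given Pdx1 siRNA or control siRNA, with 2 samples per group. Bmal1 encodes an activator of the circadian clock. The sources used here give neither the dose and time of IL-1β nor how the knockout line was made or whether it is 1 clone. They do not say that samples of a group were separate cultures.

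Each group is represented by 1 deposited peak list with no value per replicate, so no difference between conditions could be set against the spread between replicates. The libraries behind the PDX1 lists held 60.2 to 63.9 M tags, those behind the p65 lists 53.5 to 61.9 M and those behind the SIN3A lists 31.0 to 35.0 M. The knockout PDX1 lists were shorter, with 8095 peaks with IL-1β and 8339 without, at calling thresholds of 32 and 34 tags. The wild-type PDX1 lists held 38930 and 40028 peaks at 22 and 20 tags. The p65 lists held 16162 and 173 peaks in knockout and 31389 and 3157 in wild-type cells, with and without IL-1β. The part of list length and threshold in the shares below was not tested. The intervals below cover counting error only, and peaks of 1 list are not replicates of a condition. The labels of the PDX1 samples with IL-1β name the p65 antibody, but PDX1 stands in their titles, which were used. Of all wild-type control PDX1 peaks, 60.1% overlapped the wild-type IL-1β PDX1 list and 19.6% the wild-type IL-1β p65 list. Peak lists give no check that BMAL1 was lost or PDX1 depleted.

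PDX1 recognises DNA around a TAAT core, the heart of most homeodomain sites, and its best known sites lie just before the insulin genes and the gene of islet amyloid polypeptide. Most PDX1 binding in islets lies at enhancers far from genes, whereas SIN3A is typically found at active promoters. Promoters of widely used genes are usually rich in the dinucleotide CpG, and those of many cell-type specific genes are poor in it.

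Stretches of promoter under strong or named peaks are printed first, from a cluster of aldo-keto reductase genes, from hormone genes and from Hnf4a. They were chosen because 3 neighbouring Akr1c genes and both Ins1 and Iapp had a PDX1 peak at the start, and because the Akr1c stretches repeat a TAAT-containing unit. Hnf4a, a nuclear receptor gene of β-cell and liver regulation, is added as the islet transcription factor gene whose peak lay closest to its start. Each stretch is the part of the called peak that lies in the 250 bases before a RefSeq transcript start (build GRCm38.p6, the assembly of mm10), read 5′ to 3′ along the gene, with capitals marking TAAT on either strand, so that ATTA is the same core on the other strand.
Akr1c13 (chr13:4190945-4191151, plus strand): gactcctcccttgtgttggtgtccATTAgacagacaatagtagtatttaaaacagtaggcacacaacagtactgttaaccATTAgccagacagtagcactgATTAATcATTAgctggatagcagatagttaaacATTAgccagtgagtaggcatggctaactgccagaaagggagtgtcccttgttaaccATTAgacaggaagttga
Akr1c12 (chr13:4279464-4279649, minus strand): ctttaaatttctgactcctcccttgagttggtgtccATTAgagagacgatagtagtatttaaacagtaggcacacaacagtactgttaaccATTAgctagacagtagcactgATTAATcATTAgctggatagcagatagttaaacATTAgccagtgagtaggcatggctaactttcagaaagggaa
Akr1c19 (chr13:4233541-4233739, plus strand): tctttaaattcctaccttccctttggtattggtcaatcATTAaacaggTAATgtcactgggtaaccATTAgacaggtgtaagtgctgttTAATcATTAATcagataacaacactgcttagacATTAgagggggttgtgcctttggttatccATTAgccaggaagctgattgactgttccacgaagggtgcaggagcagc
Iapp (chr6:142298195-142298401, plus strand): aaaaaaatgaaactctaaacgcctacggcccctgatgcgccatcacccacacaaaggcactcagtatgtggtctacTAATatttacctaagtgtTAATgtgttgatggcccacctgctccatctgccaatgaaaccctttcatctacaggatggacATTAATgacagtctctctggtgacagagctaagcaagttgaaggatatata
Ins1 (chr19:52264144-52264296, plus strand): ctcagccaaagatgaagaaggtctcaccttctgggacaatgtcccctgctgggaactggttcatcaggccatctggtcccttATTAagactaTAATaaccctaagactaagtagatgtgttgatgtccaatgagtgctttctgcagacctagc
Hnf4a (chr2:163506660-163506856, plus strand): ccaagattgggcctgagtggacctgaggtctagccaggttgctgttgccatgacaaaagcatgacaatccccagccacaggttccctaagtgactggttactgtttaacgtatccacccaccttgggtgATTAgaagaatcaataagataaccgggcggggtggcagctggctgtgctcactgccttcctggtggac
The Akr1c13 stretch held 7 TAAT cores and the Akr1c12 stretch 6, and the Akr1c19 stretch held 8. In these, the core often stood in the 6-letter form CTAATG or its reverse complement, 5 times before Akr1c13, 4 times before Akr1c12 and 3 times before Akr1c19. Of 32851 RefSeq promoter windows (250 bases before to 50 after a start), 9 held CTAATG 3 times or more, and 3 of these 9 were the windows of these genes. The stretches of Akr1c13 and Akr1c12 were identical at 167 of 174 aligned bases (96.0%), and those of Akr1c13 and Akr1c19 at 130 of 155 (83.9%). With copies this alike, the assignment of reads between Akr1c13 and Akr1c12 is uncertain. The stretch before Iapp held 4 TAAT cores, that before Ins1 held 2 and that before Hnf4a held 1, and none of these 3 held CTAATG. The annotated body of Akr1c19 begins at 4233503, upstream of the transcript start used for its window, so that its peak centre lay 141 bp inside the gene body.

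Both insulin genes and Iapp carried PDX1 at their ends. At Ins2 the peak centre lay 234 bp outside the higher-coordinate end of the gene (mm10 chromosome 7, 142679857 to 142680063; gene body 142678656 to 142679726). It held 60.3 tags per 10 M in knockout control cells, 68.5 in wild-type IL-1β cells and 89.9 in wild-type control cells, the highest count of any gene-end peak and rank 103 in the whole list. It had no counterpart in the knockout IL-1β PDX1 list and none in any p65 or SIN3A list. At Iapp, which encodes the amyloid peptide secreted with insulin, the centre lay 127 bp before the start. This peak held 35.8 tags in knockout IL-1β cells, 46.4 in knockout control cells, 74.6 in wild-type IL-1β cells and 64.1 in wild-type control cells. At Ins1, whose peak centre lay 50 bp before the start, the counts in the same order were 22.1, 38.0, 31.1 and 44.0 tags. Iapp and Ins1 were thus listed in all 4 PDX1 lists and Ins2 in 3 of them. Under IL-1β a p65 peak also lay over Iapp (15.4 tags in knockout and 40.5 in wild-type cells) and over Ins1 (12.7 and 16.8 tags). Tag counts of different lists stand side by side as description, since no replicate spread is available for them.

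The Akr1c cluster on chromosome 13 encodes enzymes that reduce steroids and other carbonyl compounds, and 3 of its 8 genes had a strong PDX1 peak at the start. Akr1c13 held 41.3, 53.6, 79.2 and 66.8 tags in knockout IL-1β, knockout control, wild-type IL-1β and wild-type control cells. Akr1c12 held 35.2, 47.7, 83.2 and 57.8 tags in the same order, and Akr1c19 held 31.1, 36.3, 63.6 and 50.7. All 3 peaks were in every PDX1 list, with the wild-type IL-1β count the highest of each set. A p65 peak overlapped the one at Akr1c12 in knockout (31.6 tags) and wild-type (69.7 tags) IL-1β cells, and the one at Akr1c19 in knockout IL-1β cells (6.88 tags). SIN3A overlapped Akr1c13 with Pdx1 siRNA (13.4 tags) and control siRNA (13.8 tags), Akr1c19 with Pdx1 siRNA (12.3 tags) and Akr1c12 with control siRNA (17.4 tags). Akr1c18 (5.98 tags) and Akr1c6 (3.32 tags) had only a weak peak within the body near the far end, shared with no other list. Akr1c14, Akr1c20 and Akr1c21 had none. This gene family was singled out after its values had been seen.

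**Figure D1:**
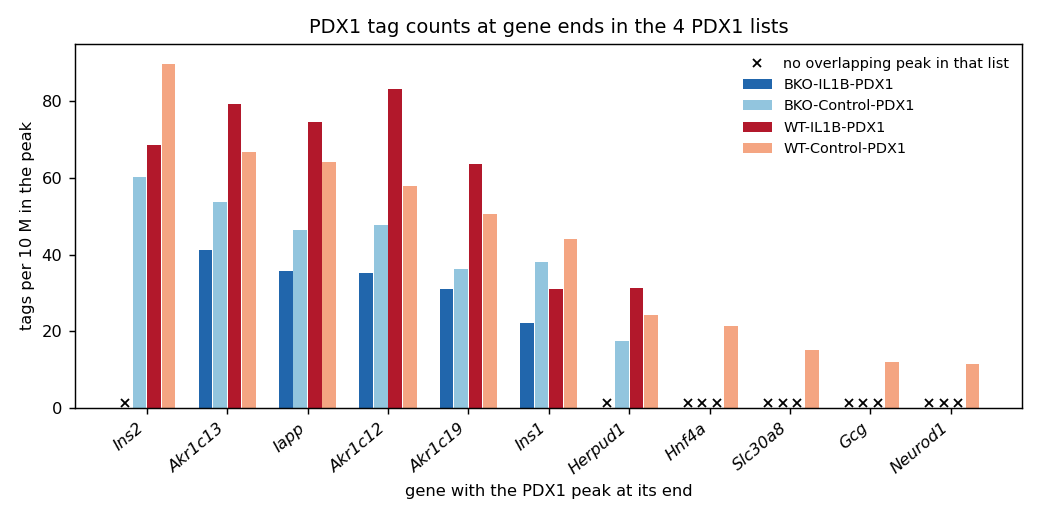
Tag counts (vertical axis, tags per 10 M) of PDX1 peaks at the ends of named genes in the 4 PDX1 lists, with bars for each list and a cross where no peak of that list overlapped. Iapp, Ins1 and the 3 Akr1c genes have a bar in every list, and Hnf4a, Slc30a8, Gcg and Neurod1 in the wild-type control list alone.

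The 25 gene-end peaks with the most tags held 46.4 to 89.9 tags, and their genes were mostly not classical β-cell genes. Beside Ins2, Iapp and the 3 Akr1c genes they included Prep, a prolyl peptidase gene (83.4 tags in wild-type IL-1β and 65.6 in wild-type control cells), Pla2g5, a secreted phospholipase gene (73.2 and 63.0), and Fmo4, a flavin monooxygenase gene (76.3 and 62.6). Pex7, the import receptor of peroxisomes, held 70.9 and 56.3 tags in these conditions, 444 bp before its start. Others were Mbnl2, a splicing regulator gene (57.3 and 58.2), Mapt, which encodes tau (47.9 and 49.9), and Myt1l, a neuronal transcription factor gene (54.9 and 49.4). Every one of the 25 was present in knockout control and in wild-type IL-1β cells, and 22 in knockout IL-1β cells, with Ins2, Prep and Il23a missing there. Of all PDX1 peaks 19.1%, 60.1% and 17.7% were in these lists. The 25 were picked by tag count, and strong peaks elsewhere also recurred often. Of the peaks away from gene ends in the highest of 4 equal bins by tag count, 55.0%, 94.5% and 51.0% were in these lists. In knockout control cells the 25 peaks held 11.9 to 60.3 tags (median 37.8), in wild-type IL-1β cells 35.0 to 84.7 (median 62.3) and in wild-type control cells a median of 56.3. Of the 25 peaks, 15 overlapped a knockout IL-1β p65 peak, 16 a wild-type IL-1β and 7 a wild-type control p65 peak. A SIN3A peak with Pdx1 siRNA overlapped 5, and one with control siRNA 4. Of all PDX1 peaks 11.3%, 19.6%, 4.37%, 2.85% and 2.24% overlapped these lists in the same order. Among peaks away from gene ends in the highest of 4 equal bins by tag count, the shares were 29.7%, 44.7%, 14.5%, 6.99% and 5.04%.

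Gene-end peaks had a median tag count close to that of other PDX1 peaks and made up larger shares of the middle of the list than of its strongest and weakest peaks. Their median was 8.47 tags (quartiles 5.48 to 13.2), against 8.14 (4.99 to 14.6) for the 38500 other peaks. At the 99th percentile the counts were 50.8 tags for gene-end peaks and 63.3 for the others. Gene-end peaks made up 3.20% of the highest of 4 equal bins by tag count (2.87 to 3.56%) and 1.5% of the top 400 (6 peaks, 0.689 to 3.23%), against 4.86% of the second bin (4.45 to 5.30%) and 4.08% of the third (3.71 to 4.48%). In the lowest bin their share was 3.14% (2.81 to 3.50%), close to that in the highest. Their fold over input, deposited by the authors for each peak, was lower, with a median of 6.84 against 9.44. The members nearest the distance limit were at 1000 bp, by Chn1 (10.6 tags) and Avpr1a (4.15 tags), and the nearest peak beyond it was at 1003 bp from E2f2 (3.99 tags).

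Gene starts held more of the peaks than far ends, and the peaks gathered just before the start. The strand was known for the 79.9% of protein-coding genes that have a RefSeq promoter window. The nearest end was a start for 854 peaks (55.9%), a far end for 374 (24.5%) and of unknown kind for 300. Around starts, 525 of the 854 centres (61.5%) lay before the start, and 198 of them in the last 250 bp, against 101 in the first 250 bp of the gene. Around far ends 185 of 374 (49.5%) lay before the end. One gene was within reach of 1376 peaks and 2 genes of 151 peaks, so that some peaks cannot be given to 1 gene.

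**Figure D2:**
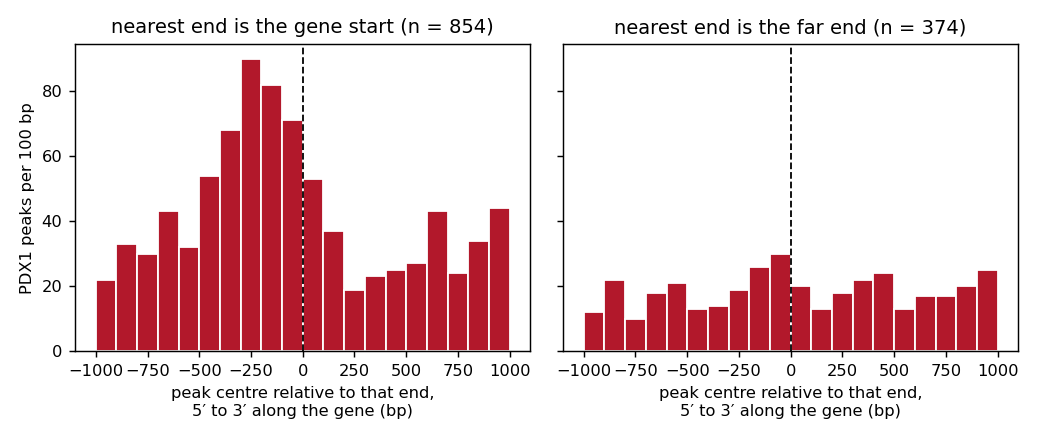
Number of PDX1 peaks (vertical axis, per 100 bp) by the position of the peak centre relative to the nearest gene end, for 854 peaks nearest a start (left) and 374 nearest a far end (right). The fullest bars lie within 500 bp before the start, where 167 and 198 centres fall in the outer and inner 250 bp.

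Gene-end PDX1 peaks recurred less often than other peaks in each of the 3 other PDX1 lists. In wild-type IL-1β cells 651 of 1528 gene-end peaks (42.6%, 40.1 to 45.1%) overlapped a PDX1 peak, against 60.8% of the other peaks. The difference was -18.2 percentage points (Newcombe 95% interval -20.7 to -15.6), and 60.1% of the whole list was shared. In knockout control cells 179 gene-end peaks (11.7%, 10.2 to 13.4%) had a PDX1 counterpart, against 19.4% of the other peaks and 19.1% of all, a difference of -7.65 points (-9.22 to -5.90). In knockout IL-1β cells the shares were 11.1% (169 peaks) and 18%, with 17.7% of the whole list and a difference of -6.95 points (-8.47 to -5.23). With a threshold of 8-fold over input in every list, the shares were 27.2%, 5.37% and 5.85% of 615 gene-end peaks in wild-type IL-1β, knockout control and knockout IL-1β cells, and the differences -13.6, -3.43 and -3.09 points. With peaks compared within 4 bins of tag count, the differences were -19.0 points (-21.3 to -16.8) for wild-type IL-1β, -6.48 (-7.96 to -4.99) for knockout control and -5.83 (-7.29 to -4.38) for knockout IL-1β cells. Bins of fold over input, a choice added after the data had been seen, gave smaller differences. In the same order these were -15.6 (-18.1 to -13.1), -4.12 (-5.75 to -2.50) and -3.63 points (-5.21 to -2.06).

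Stronger peaks recurred more often, at gene ends and elsewhere. In the highest bin 81.9% of gene-end peaks and 94.5% of other peaks were in the wild-type IL-1β PDX1 list. In the third bin the shares were 24.5% and 50.1%, and in the lowest 18.5% and 25.8%. For knockout control cells they were 38.8% and 55.0% in the highest bin and 1.59% and 1.39% in the lowest, where the intervals overlap. Near misses were few, as 28 gene-end peaks without an overlap had a wild-type IL-1β PDX1 centre within 500 bp (1.83%, against 1.45% of other peaks and 1.46% of all). All 4 PDX1 lists held 94 gene-end peaks (6.15%, against 11.5% of other peaks and 11.3% of all). No other PDX1 list held 848 of them (55.5%, 53.0 to 58.0%), against 37.0% of other peaks and 37.7% of all, a difference of 18.5 points (16.0 to 21.1). A p65 or SIN3A peak overlapped 254 of these 848 peaks (16.6% of gene-end peaks, against 2.33% of other peaks and 2.88% of all). Seen from the genes, 724 of the 1621 (44.7%) had a wild-type IL-1β PDX1 peak at an end, as did 6.24% of all protein-coding genes, and 187 (11.5%) a knockout control one, as did 1.01% of all.

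**Figure D3:**
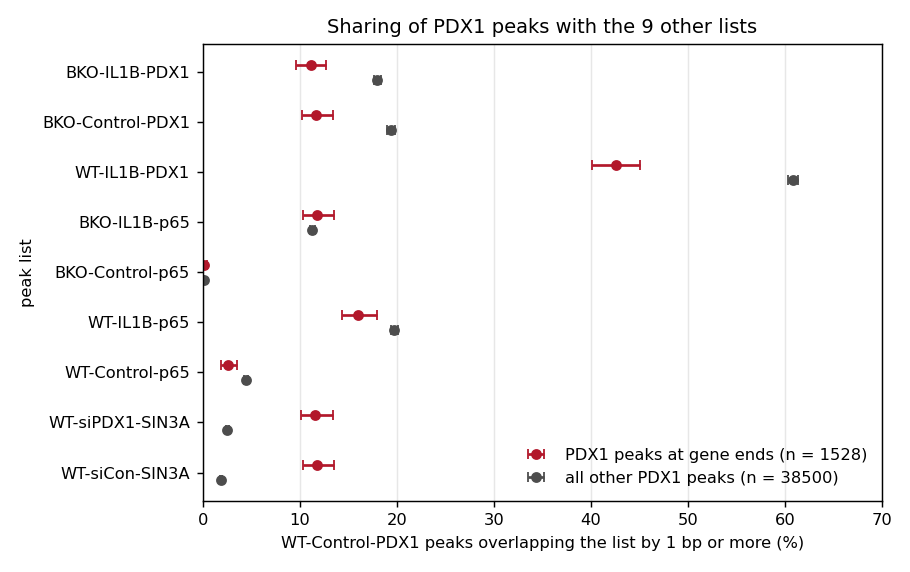
Share of wild-type control PDX1 peaks (horizontal axis, %) that overlap each of the 9 other lists by 1 bp or more, for the 1528 gene-end peaks (red) and the 38500 others (grey), with Wilson 95% intervals. The red points lie left of the grey ones for the 3 PDX1 lists and right of them for both SIN3A lists.

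SIN3A was shared more often at gene ends than elsewhere. With Pdx1 siRNA 178 gene-end PDX1 peaks (11.6%, 10.1 to 13.4%) overlapped a SIN3A peak, against 2.50% of other peaks and 2.85% of all, a difference of 9.15 points (7.62 to 10.9). With control siRNA there were 180 (11.8%, 10.3 to 13.5%), against 1.86% and 2.24%, a difference of 9.92 points (8.39 to 11.6). SIN3A peaks themselves lay within 1 kb of a gene end in 65.5% of cases with Pdx1 siRNA and in 68.2% with control siRNA. The gene-end PDX1 peaks were chosen by this same distance. The part of position alone in the SIN3A differences from other peaks, here and below, was not tested. Seen from the SIN3A lists, 1.21% of peaks with Pdx1 siRNA and 1.37% with control siRNA overlapped a gene-end PDX1 peak. Of the gene-end PDX1 peaks 99 overlapped SIN3A in both lists (6.48%, 0.992% of all peaks), 79 with Pdx1 siRNA alone (5.17%, 1.86% of all) and 81 with control siRNA alone (5.30%, 1.25% of all). Unlike sharing between PDX1 lists, sharing with control siRNA SIN3A did not climb with PDX1 tag count at gene ends, with 11.9% in the highest bin, then 11.3%, 13.7% and, in the lowest, 9.87%.

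Most SIN3A at these genes lay beside the PDX1 peak and not under it. A control siRNA SIN3A centre lay within 100 bp of 70 gene-end PDX1 centres (4.58%, against 1.01% of other peaks and 1.14% of all), within 500 bp of 436 (28.5%, 2.76% and 3.75%) and within 1 kb of 759 (49.7%, 3.38% and 5.15%). With Pdx1 siRNA the counts were 88 (5.76%, 1.59% of all), 491 (32.1%, 4.75% of all) and 787 (51.5%, 6.20% of all). Counting overlap only where centres lay within 100 bp thus left a difference from other peaks of 4.34 points with Pdx1 siRNA and 3.58 points with control siRNA. At gene level, 1151 of the 1621 genes (71.0%) had a SIN3A peak at an end with Pdx1 siRNA, against 42.5% of the other protein-coding genes and 44.7% of all. With control siRNA it was 1108 (68.4%), against 40.7% and 42.7%. SIN3A overlap was found mainly at starts, where 15.1% of peaks had it with Pdx1 siRNA and 15.8% with control siRNA. At far ends the shares were 4.81% and 3.74%. The differences between start and far end were 10.3 points (6.81 to 13.4) and 12.1 points (8.72 to 15.1). Examples with the highest SIN3A counts, chosen after the values had been seen, were Exoc1, a subunit gene of the exocyst (88.6 tags with Pdx1 siRNA, 61.8 with control siRNA, PDX1 13.8), and the peak of Tbc1d16/Ccdc40 (78.6 and 63.8, PDX1 28.9).

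Gene-end PDX1 peaks with SIN3A recurred less often in the wild-type IL-1β PDX1 list than those without. Of the 259 with SIN3A in either list (17% of gene-end peaks, 4.10% of all peaks), 81 (31.3%) overlapped a wild-type IL-1β PDX1 peak, against 570 of 1269 without SIN3A (44.9%), a difference of -13.6 points (-19.6 to -7.16). Their median tag counts were close, 8.64 and 8.47. For knockout control PDX1 the shares were 8.88% and 12.3%, and the interval of the difference, -6.88 to 1.02 points, includes 0. For knockout IL-1β PDX1 they were 12% and 10.9% (-2.77 to 5.89 points), for knockout IL-1β p65 12.4% and 11.7% (-3.25 to 5.55) and for wild-type IL-1β p65 17.8% and 15.7% (-2.59 to 7.53). Peaks at starts were also listed less often than peaks at far ends, in wild-type IL-1β cells with 38.6% against 50.8% (difference -12.2 points, -18.1 to -6.12) and in knockout control cells with 9.60% against 15.8% (-6.17 points, -10.6 to -2.19). In knockout IL-1β cells the shares were 9.25% and 13.9% (-4.65 points, -8.91 to -0.858).

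**Figure D4:**
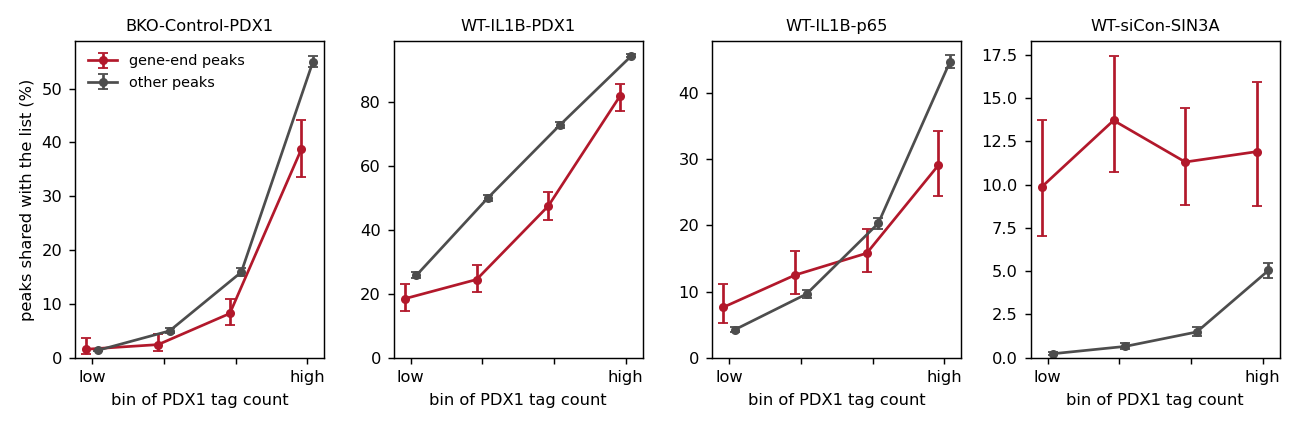
Share of gene-end (red) and other (grey) wild-type control PDX1 peaks found in 4 of the other lists (vertical axis, %, scaled per panel) across 4 equal bins of PDX1 tag count, with Wilson 95% intervals. Sharing with the PDX1 and p65 lists climbs with tag count, while SIN3A sharing of gene-end peaks stays between 9.87% and 13.7%.

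By 1 bp overlap, p65 met gene-end PDX1 peaks less often than other peaks in the wild-type lists. The intervals of the difference included 0 in the knockout lists. Within 1 kb and within 2000 bp the wild-type IL-1β direction was the other one. The shares by gene answer a different question, since they compare genes with a gene-end PDX1 peak to genes without one. In wild-type IL-1β cells 245 gene-end peaks (16.0%, 14.3 to 18%) lay in a p65 peak, against 19.7% of other peaks and 19.6% of all, a difference of -3.71 points (-5.51 to -1.75). The interval of this difference reached 0 with a limit of 500 bp from the gene end (-2.57 points, -4.92 to 0.0438) and with peaks at least 8-fold over input (-1.52, -3.55 to 1.01). Its direction also depended on strength, with 29.1% against 44.7% in the highest bin of PDX1 tag count and 7.64% against 4.25% in the lowest. A wild-type IL-1β p65 centre lay within 100 bp of 11.1% of gene-end peaks, against 14.5% of other peaks and 14.4% of all, and within 500 bp of 22.7%, against 22.9% and 22.9%. Within 1 kb the shares were 27.9%, 24.9% and 25%, a difference between gene-end and other peaks of 3.02 points (0.788 to 5.37). Within 2000 bp they were 31.9%, 27.3% and 27.5%, a difference of 4.55 points (2.22 to 6.98). Of the 1621 genes with a gene-end PDX1 peak 24.9% had a knockout IL-1β p65 peak at an end, against 10.6% of the other genes and 11.7% of all, and 33.7% a wild-type IL-1β one, against 14.4% and 15.9%. In knockout IL-1β cells 180 peaks (11.8%) were shared, against 11.3% of other peaks and 11.3% of all, and the interval of the difference was -1.09 to 2.20 points. Here too the direction changed with PDX1 tag count, with 25.9% against 29.7% in the highest bin and 8.58% against 3.80% in the third. Without IL-1β, 2 gene-end peaks overlapped a knockout p65 peak (0.131%, 0.127% of all), those at Gemin6 and Pdcd6ip, and 39 a wild-type p65 peak (2.55%, against 4.44% of other peaks and 4.37% of all). The wild-type control difference was -1.89 points (-2.60 to -0.950), and -0.242 (-1.04 to 0.556) within bins of fold over input. By bins of PDX1 tag count the wild-type control shares were 5.31% against 14.5% in the highest and 2.21% against 0.844% in the third. The highest wild-type IL-1β p65 counts at gene-end PDX1 peaks, named after the values had been seen, were at Fam117a (132.6 tags in knockout IL-1β and 334.2 in wild-type IL-1β cells) and at the peak of Fam187a/Ccdc103 (122.7 and 300.7).

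The peaks in most lists combined all 3 proteins. No gene-end peak was in more than 7 of the 9 other lists, while 0.0545% of other peaks were in 8 and 0.00260% in 9. In 7 lists were 3 gene-end peaks (0.196%, against 0.244% of other peaks), namely those at Mroh7, Fam135a and Gemin6. Gemin6, whose product belongs to the complex that assembles splicing particles, held p65 with 93.7 tags in knockout IL-1β cells, 15.0 in knockout control cells and 249.9 in wild-type IL-1β cells. Its PDX1 counts were 19.7, 45.7 and 29.2 tags in knockout control, wild-type IL-1β and wild-type control cells. Fam135a held SIN3A with 26.3 tags with Pdx1 siRNA and 27.4 with control siRNA, and p65 with 33.4 in wild-type IL-1β cells. At the other extreme, 594 gene-end peaks (38.9%, against 34.6% of other peaks) overlapped nothing in the other lists. The strongest of these were at Smim20 (27.3 tags), Dhx16, an RNA helicase gene (22.3), Usp1, a deubiquitinase gene (20.9), Tm9sf4 (20.3) and Ppp2ca, the catalytic subunit gene of a major phosphatase (19.6).

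A gene-end PDX1 peak was found at genes of insulin secretion and of islet transcription factors. All counts of listed genes are read against the 7.41% of all protein-coding genes that had a gene-end PDX1 peak, and the lists were not tested as sets. Of 35 insulin, granule and secretion genes 7 had one (20%). Beside the insulin genes and Iapp these included Slc30a8, which carries zinc into insulin granules (15.0 tags), Ptprn, a granule membrane protein gene (8.64), and Rab27a, a GTPase gene of granule docking (6.15). The peaks at Slc30a8, Ptprn and Rab27a overlapped no other list. Of 24 islet transcription factor genes 3 had one (12.5%), namely Myt1 (24.3 tags), Hnf4a (21.4) and Neurod1 (11.5), and none of the 3 peaks was in another PDX1 list. Hnf4a and Neurod1 lay under SIN3A, with 17.7 and 34.6 tags with Pdx1 siRNA and 12.2 and 36.4 with control siRNA. Pdx1 itself had no gene-end peak. Of 6 hormone genes of other islet cells Gcg, encoding glucagon, and Sst, encoding somatostatin, had a peak (12 and 6.98 tags), again in no other list.

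Stress and histone genes were among the lists with larger shares. Of 18 genes of the unfolded protein response 4 had a gene-end peak (22.2%), the highest at Herpud1, which serves protein disposal from the endoplasmic reticulum (17.3 tags in knockout control, 31.3 in wild-type IL-1β and 24.1 in wild-type control cells). Dnajb9, a chaperone gene, held 11.2 tags in wild-type IL-1β and 8.31 in wild-type control cells, and Atf6, a sensor of the response, 8.10 and 4.82. Sdf2l1 (6.65 tags) was in no other list. Of 67 histone genes 14 had one (20.9%), at peaks of 7.64 to 12.5 tags except for H4c3 with 17.1, 19.7, 32.7 and 30.4 tags in knockout IL-1β, knockout control, wild-type IL-1β and wild-type control cells. Histone genes are near-identical copies lying close together, several peaks are shared by a pair of them, and the placement of reads among them is uncertain.

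Clock, inflammatory and ribosomal genes had shares of 6.41 to 10.7%. Of 23 core clock genes 2 had a peak (8.70%), at the far end of Per1 (10.5 tags) and before Cry1 (7.48), both repressors of the clock, and neither was in another list. Of 30 NF-κB regulators and targets 3 had one (10.0%), namely Cflar, an inhibitor of death receptor signalling (7.45 tags in wild-type IL-1β and 7.48 in wild-type control cells), the chemokine gene Cxcl10 (7.31) and the adhesion gene Icam1 (3.66, shared with the start of Icam4). Of 16 immediate early genes Jund and Nr4a2 had one (12.5%). Of 84 cytosolic ribosomal protein genes 9 had one (10.7%), among them Rps26, where SIN3A held 51.8 tags with Pdx1 siRNA and 42.5 with control siRNA and PDX1 11.8. Of 78 mitochondrial ribosomal protein genes 5 had one (6.41%), Mrps36 (23.1 tags) and Mrps17 (21.8) being the highest. None of 19 SIN3 and HDAC complex genes, 12 genes normally silent in β-cells and 20 genes of other lineages had one.

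**Figure D5:**
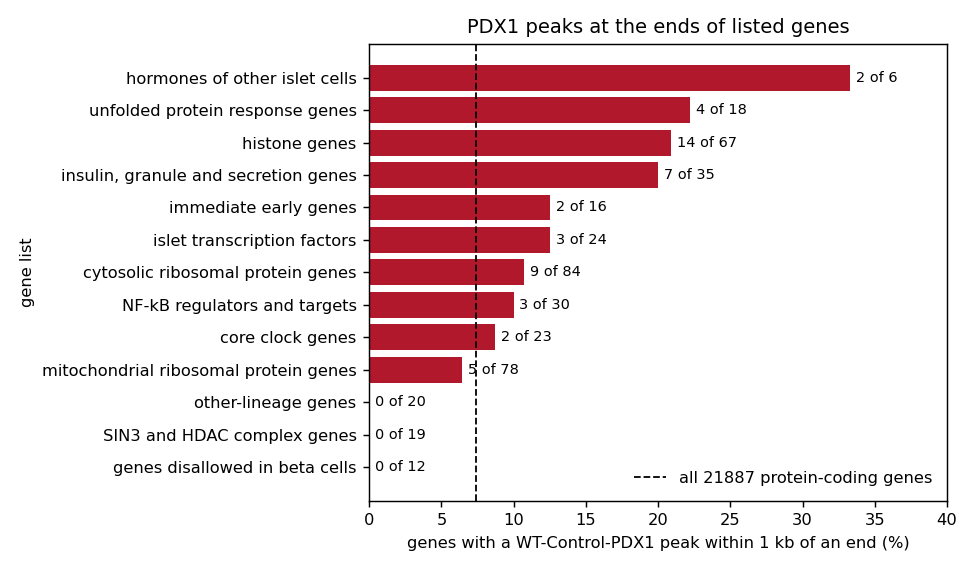
Share of the genes of 13 lists (horizontal axis, %) with a wild-type control PDX1 peak within 1 kb of an end, with counts beside the bars and a dashed line at the 7.41% of all protein-coding genes. The lists range from 2 of 6 hormone genes to 0 of 20 genes of other lineages.

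Promoters with PDX1 held the TAAT core more often than promoters at large. A PDX1 centre lay in, or within 150 bp of, 781 of the 32851 promoter windows, which include non-coding genes. Of these 781, 611 held TAAT on either strand (78.2%, 75.2 to 81.0%), against 58.0% of all windows. The share was 86.3% (397 of 460) where the centre lay inside the window. Among windows of protein-coding genes alone it was 75.3% with PDX1 and 51.8% in all. TAATTA, a pair of overlapping cores, was in 15.1% (12.8 to 17.8%), against 5.29% of all, and CTAATG also in 15.1% (12.8 to 17.8%), against 7.36%. Both contain TAAT, so these counts overlap. The PBX-type motif ATCAATCA was in 1.41% and 0.746%, the E-box CACGTG, which BMAL1 can bind, in 9.48% and 7.15%, the AP-1 motif TGANTCA in 8.96% and 7.81%, and the NF-κB type motif GGAANNNCC in 19.8% and 18.5%. Both strands were searched throughout. A match describes the letters only.

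Gene-end peaks at CpG-rich and at CpG-poor promoters differed in the lists they shared. Protein-coding windows with PDX1 nearby held at least 10 CpG in 71.2% of cases, against 56.8% of all protein-coding windows. With windows of non-coding genes included, 29.8% of windows with PDX1 at 20 tags or more nearby did so. The share was 56.2% of all windows with PDX1 nearby and 43.5% of all windows. Gene-end peaks at such CpG-rich windows (276) and at CpG-poor ones (94) had similar median tag counts, 8.64 and 8.31, and a median fold over input of 5.81 and 7.11. A wild-type IL-1β PDX1 peak overlapped 27.9% at CpG-rich and 43.6% at CpG-poor windows, a difference of -15.7 points (-27.0 to -4.64). For knockout control PDX1 the shares were 3.26% and 17% (difference -13.8 points, -22.7 to -6.89), for knockout IL-1β PDX1 4.71% and 21.3% (-16.6 points, -26.1 to -8.82) and for wild-type IL-1β p65 15.2% and 28.7% (-13.5 points, -24.0 to -4.07). SIN3A in either list was found at 34.8% of CpG-rich and 24.5% of CpG-poor windows, with an interval of the difference, -0.670 to 19.9 points, that includes 0. For knockout IL-1β p65 the shares were 11.2% and 14.9%, and the interval of the difference was -12.8 to 3.55 points. Within bins of tag count the differences were -13.6 points (-24.6 to -2.62) for wild-type IL-1β PDX1, -9.03 (-14.2 to -3.82) for knockout control PDX1 and -13.1 (-20.4 to -5.79) for knockout IL-1β PDX1. They were -0.324 (-6.93 to 6.28) for knockout IL-1β p65, -12.0 (-22.1 to -1.92) for wild-type IL-1β p65 and 13.0 (3.19 to 22.9) for SIN3A. The Akr1c, Iapp, Ins1 and Hnf4a windows above had 0 to 4 CpG each. The part of CpG content, strength and fold over input in these differences was not tested beyond the binned values.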

How the data were processed

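The values used are 10 HOMER peak lists, deposited by the authors, 1 per group, covering 28 immunoprecipitated samples with 6 inputs. Per the file headers, findPeaks ran in factor style on 1 collection of immunoprecipitated tags and 1 of input tags, at a false discovery rate of 0.001 and at least 4-fold over input and over the local 10 kb. Whether replicates were pooled is not stated, and the submitters' processing notes name Bowtie2 and HOMER without settings. The deposited signal is the authors' tag count per 10 M tags, the deposited score is HOMER's position-adjusted tag count, and the deposited ratio is the fold over input. In each list 7 further value columns were not used.

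Build mm10 is named in the submitters' processing notes. Gene bodies and promoter windows are RefSeq's of GRCm38.p6. Of 21887 protein-coding genes 79.9% have a window, which gave the strand. Overlap meant 1 bp or more. Wilson intervals were used for shares, Newcombe intervals for differences of 2 shares and stratified normal intervals within bins, computed in Python 3.11.15 with numpy 2.4.6 and pandas 2.3.3 and checked on simulated data.

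Members and gene lists were chosen with earlier results of these data known. Named genes are the 25 gene-end peaks with most tags, genes of the lists with a gene-end peak, and the 10 peaks in most and the 10 in no other lists, of which some are given. One item is not reported here. Peak widths ranged from 207 bp in the wild-type control PDX1 list to 479 bp, and wider peaks overlap more readily. Motif and CpG searches used promoter windows, not peaks. Depth and the calling threshold limit each list, since weak sites can fall on either side of the threshold. Alternatives changed the distance limit, the overlap rule, the fold over input and the bins compared.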

Additional observations from a re-analysis of the deposited data

How the results depend on the processing

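The number of gene-end peaks followed the distance limit and the threshold, at 907 peaks (2.27%) and 960 genes for 500 bp, 2447 peaks (6.11%) and 2588 genes for 2000 bp, and 615 peaks (2.57%) and 643 genes at 8-fold over input. Of 60 alternative differences between gene-end and other peaks over the 9 lists, 57 gave the same reading of their interval, as including or not including 0. The others were -2.57 (500 bp) and -1.52 (8-fold) points for wild-type IL-1β p65, and -0.242 for wild-type control p65 within bins of fold over input, a choice added after the data had been seen; the cause was not tested. Of the shares themselves 28 moved outside the interval given in the report and 14 did not. The share with SIN3A fell to 4.58% with control siRNA when centres had to lie within 100 bp, with a difference of 3.58 points. With the peak centre inside the window, TAATTA was in 20.4%, CTAATG in 18.9% and TAAT in 86.3% of promoters. A reciprocal overlap of 50% was not run for the 3 knockout lists whose peaks are too wide for a PDX1 peak to cover 50% of them (419 to 479 bp). No paired analysis was possible because the lists hold no value per replicate, and no replicate could be left out for the same reason. Peak lists set a limit by depth and threshold, so a peak missing from a list can be a weaker peak under its threshold.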
